A study of Caenorhabditis elegans with 8 samples.

Results

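The daf-2 effect common to both hel-1 backgrounds was measured in whole Caenorhabditis elegans by RNA sequencing, with 4 libraries of the daf-2 strains set against 4 libraries of the others. The daf-2 strains were daf-2(e1370), strain CF1041, and the hel-1(gk148684);daf-2(e1370) double mutant, strain IJ1121. The others were hel-1(gk148684), strain IJ501, and the wild type, N2. Each of the 4 genotypes had 2 libraries, which the labels call independent repeats, of adults on day 1 at 20 °C. The comparison uses all 8 libraries of the series and takes the hel-1 genotype as an additive term, so that a difference is read as an effect of daf-2 averaged over the absence and the presence of the hel-1 mutation. Each strain is a single line, and anything besides the daf-2 allele that sets both daf-2 strains apart from both others cannot be told apart from it. Of 46904 genes in the files, 13722 had enough counts to be tested. A gene is called where its Benjamini-Hochberg adjusted p is below 0.05, and the libraries are said not to overlap where all 4 of one side lie beyond all 4 of the other. The genes named below were called, did not overlap, averaged at least 5 CPM (counts scaled to the size of the library) in the higher side and stayed called in all 8 fits that left out 1 library, unless it is said otherwise. Further members of the gene lists and of the stretch of chromosome V were chosen after their values were seen and need only have passed the test.

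DAF-2 is the worm's insulin/IGF-1 receptor. When ligands bind it, a kinase cascade through phosphoinositide 3-kinase and AKT phosphorylates the FOXO transcription factor DAF-16 and keeps it in the cytoplasm. The e1370 mutation lies in the receptor's kinase domain and lowers its function, and worms that carry it live long, resist heat and oxidative stress, and depend on DAF-16 for both. HEL-1 is a DEAD-box RNA helicase, of a family that acts in messenger RNA export and splicing, and the study asked how it bears on the output of daf-2.

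The libraries held 31555368 to 37552513 counts. The main axis of variation, with 50.8% of the variance, placed the daf-2 strains between 4.176 and 50.82 and the others between -31.78 and -8.907. Replicate 2 of daf-2 stood apart: the 2 daf-2 libraries correlated at 0.987, against 0.996 to 0.998 in the other genotypes. Its summed pharynx markers stood at 136 CPM, against 13.4 to 21.1 CPM in the other 7 libraries, and none of the 7 markers was at 0 in every library. Body wall muscle markers summed to 5190 CPM in it, against 2130 to 2710 CPM in the rest, and neuron markers to 237 CPM, against 150 to 189 CPM. Intestine markers summed to 3100 to 3450 CPM in the daf-2 strains and to 3450 to 4520 CPM in the others, and oocyte and germline markers to 10200 to 13500 CPM in the daf-2 strains and 11600 to 14000 CPM in the others. In RNA from whole worms, fewer cells of a type and less RNA per cell cannot be told apart. The part of these shifts in the results was not tested; values without this library are given beside the groups that move with it.

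The alleles are not visible as a loss of transcript. daf-2 itself, on chromosome III, had 145 and 139 CPM in daf-2 and 141 and 132 CPM in hel-1;daf-2, against 107 and 118 CPM in hel-1 and 109 and 116 CPM in wild type. All 4 libraries of the daf-2 strains were above all 4 others, by a small margin (log2 fold change 0.30 ± 0.06, adjusted p = 0.0195), and the call held in 4 of the 8 fits that left out a library. daf-16 had 156 ± 9.22 CPM in the daf-2 strains and 158 ± 7.28 CPM in the others (SD, n = 4 each) and did not pass the test (adjusted p = 0.874). hel-1 had 519 ± 35.4 CPM in the daf-2 strains and 577 ± 41 CPM in the others, with adjusted p = 0.303. Each side holds a strain with the hel-1 allele, so that this comparison does not show its effect. By strain the gene had 565 and 526 CPM in hel-1 and 535 and 526 CPM in hel-1;daf-2. Without the allele it had 618 and 601 CPM in wild type and 547 and 468 CPM in daf-2. The difference by hel-1 allele was not tested.

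The daf-2 strains differed from the others at 1117 genes. 695 genes were higher in the daf-2 strains, 5.06% of those tested, and 422 were lower, 3.08%. With upper-quartile scaling in place of TMM the split became 850 higher and 856 lower, so that 49.8% of the calls were higher instead of 62.2%. Among the called genes, the 4 and 4 libraries did not overlap at 679 higher and 411 lower genes. That arrangement was common over all tested genes too: 11.4% had all 4 daf-2 libraries above all others and 9.73% had all 4 below. The rises were larger than the falls, with a median log2 fold change of 0.95 among the higher genes and -0.59 among the lower genes, and 333 and 158 of them changed at least 2-fold. Calls depended on single libraries: 264 higher and 114 lower genes were called in every fit that left out 1 library, and leaving out daf-2 replicate 2 gave 1004 and 913.

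The genes that separated the strains most widely were nearly silent outside the daf-2 strains. icmt-1, an isoprenylcysteine carboxyl methyltransferase gene on chromosome I that ends the processing of prenylated proteins, had 102 and 132 CPM in daf-2 and 136 and 134 CPM in hel-1;daf-2, against 0.451 and 0.499 CPM in hel-1 and 0.581 and 0.217 CPM in wild type. The groups were far apart, with daf-2 replicate 1 the lowest of the high libraries (log2 fold change 8.15 ± 0.19, adjusted p = 6.57e-07). mtl-1 (WBGene00003473, chromosome V, 6691371 to 6691863), a metallothionein that binds heavy metals, had 19.1 and 44.4 CPM in daf-2 and 9.26 and 19.6 CPM in hel-1;daf-2, against 0.053 and 0.623 CPM in hel-1 and 0.0291 and 0.155 CPM in wild type. Its levels differed more than 2-fold within each strain, and no library crossed over (log2 fold change 6.66 ± 0.79, adjusted p = 0.00236). ftn-1 (WBGene00001500, chromosome V, 7546468 to 7547579), a ferritin that stores iron, had 14.7 and 11.3 CPM in daf-2 and 5.59 and 2.29 CPM in hel-1;daf-2, against 0.053 and 0.187 CPM in hel-1 and 0.174 and 0.0621 CPM in wild type. It was higher in daf-2 than in the double mutant, and both stood above all the others (log2 fold change 5.96 ± 0.55, adjusted p = 0.000834).

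dod-6 (WBGene00011869, chromosome III, 10197716 to 10198352), named for lying downstream of DAF-16, had 83.1 and 165 CPM in daf-2 and 35.8 and 43.8 CPM in hel-1;daf-2, against 1.43 and 2.37 CPM in hel-1 and 2.24 and 1.09 CPM in wild type (log2 fold change 5.32 ± 0.46, adjusted p = 0.000647). lipl-1 (WBGene00010062, chromosome V, 12919986 to 12921692), a lysosomal lipase, had 74.6 and 118 CPM in daf-2 and 52.5 and 53.7 CPM in hel-1;daf-2, against 2.36 and 5.83 CPM in hel-1 and 1.63 and 1.49 CPM in wild type (log2 fold change 4.72 ± 0.50, adjusted p = 0.00141). sod-3 (WBGene00004932, chromosome X, 17092753 to 17094306), a mitochondrial manganese superoxide dismutase widely used as a readout of DAF-16, had 22.8 and 32.5 CPM in daf-2 and 19.4 and 19.2 CPM in hel-1;daf-2, against 2.39 and 2.46 CPM in hel-1 and 1.51 and 1.55 CPM in wild type (log2 fold change 3.56 ± 0.26, adjusted p = 0.000363). In these 3 genes each daf-2 library was above each double-mutant library. sod-3 overlaps antisense genes by 89 exon bases, and reads of the 2 strands cannot be separated here. Other large rises were those of F15B9.6 (5.75 ± 0.43), F17B5.1 (5.17 ± 0.59), the carboxylesterase-family gene cest-1.1 (4.78 ± 0.77), F21C10.11 (4.19 ± 0.72) and pals-26 (3.96 ± 0.24), on the log2 scale. pals-26 and F21C10.11 overlap same-strand neighbours by 170 and 79 exon bases, and their counts are uncertain.

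rnh-1.3 (WBGene00007303, chromosome I, 9710088 to 9710745), of the ribonuclease H1 family, was the steadiest of the large rises. It had 43.9 and 44.2 CPM in daf-2 and 40.5 and 51.7 CPM in hel-1;daf-2, against 2.73 and 3.02 CPM in hel-1 and 3.23 and 3.17 CPM in wild type (log2 fold change 3.89 ± 0.11, adjusted p = 1.13e-06).

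**Figure D1:**
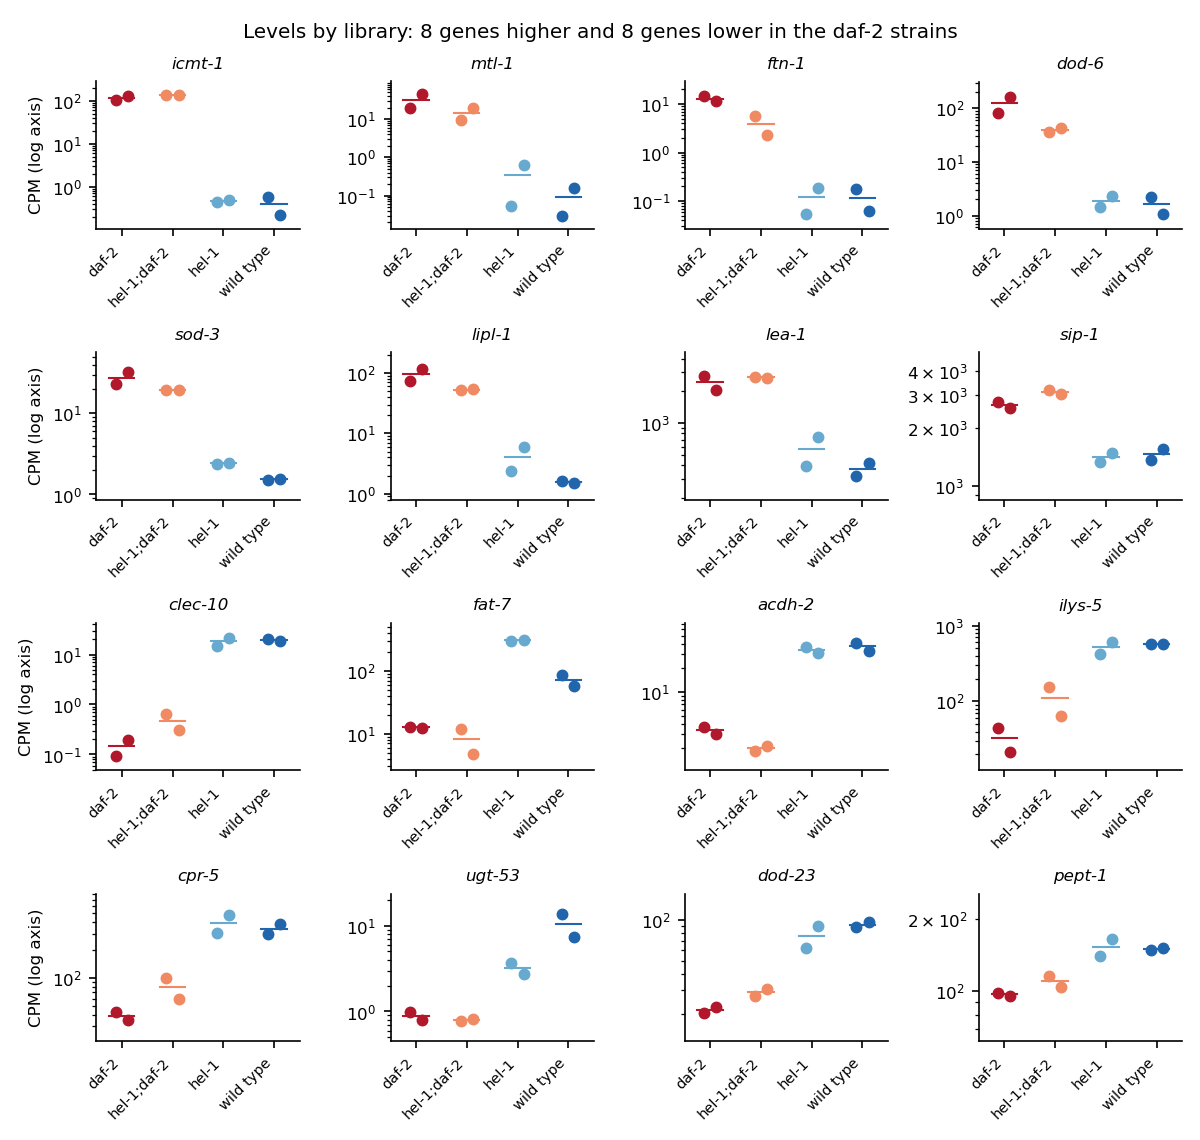
Levels of 16 genes in each of the 8 libraries, in CPM on a log axis; points are single libraries, short lines the mean of the 2 libraries of a genotype, and the genotypes run from daf-2 and hel-1;daf-2 on the left to hel-1 and wild type on the right. The 8 genes of the upper rows, icmt-1 to sip-1, are higher in all 4 libraries of the daf-2 strains, and the 8 genes of the lower rows, clec-10 to pept-1, are lower in all 4.

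clec-10, fat-7 and acdh-2 were among the 12 largest falls. clec-10 (WBGene00015403, chromosome II, 402678 to 404180), a C-type lectin gene, had 0.0946 and 0.199 CPM in daf-2 and 0.631 and 0.314 CPM in hel-1;daf-2, against 14.8 and 21.7 CPM in hel-1 and 20.3 and 18.5 CPM in wild type. It was the largest fall by the rule used (log2 fold change -5.97 ± 0.40, adjusted p = 0.000239), and the groups were far apart. fat-7 (WBGene00001399, chromosome V, 7151353 to 7153146), a stearoyl-CoA desaturase that makes oleic acid, had 13 and 12.5 CPM in daf-2 and 11.9 and 4.8 CPM in hel-1;daf-2, against 308 and 318 CPM in hel-1 and 86.8 and 57.4 CPM in wild type. The daf-2 strains were low, with hel-1;daf-2 replicate 2 below the other 3 libraries, while the level outside them was higher in hel-1 than in wild type (log2 fold change -3.84 ± 0.60, adjusted p = 0.00859). acdh-2 (WBGene00015894, chromosome II, 5544778 to 5547492), an acyl-CoA dehydrogenase of fatty acid oxidation, had 3.72 and 2.97 CPM in daf-2 and 1.86 and 2.13 CPM in hel-1;daf-2, against 36.7 and 30.5 CPM in hel-1 and 41.2 and 32.8 CPM in wild type. The fall was close to even in both backgrounds (log2 fold change -3.76 ± 0.17, adjusted p = 3.21e-05), but 87 of its exon bases are shared with ins-13 on the same strand.

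ilys-5 (WBGene00017691, chromosome X, 6533490 to 6536840), an invertebrate-type lysozyme, had 44.7 and 21.8 CPM in daf-2 and 157 and 63.4 CPM in hel-1;daf-2, against 425 and 611 CPM in hel-1 and 578 and 568 CPM in wild type (log2 fold change -3.16 ± 0.49, adjusted p = 0.00852). cpr-5 (WBGene00000785, chromosome V, 1132598 to 1134036), a cathepsin B-like cysteine protease, had 43.2 and 35.6 CPM in daf-2 and 100 and 59.2 CPM in hel-1;daf-2, against 306 and 475 CPM in hel-1 and 300 and 380 CPM in wild type (log2 fold change -2.70 ± 0.26, adjusted p = 0.000925). ugt-53 (WBGene00020182, chromosome V, 2849343 to 2852028), a UDP-glucuronosyltransferase that conjugates small molecules, had 0.977 and 0.798 CPM in daf-2 and 0.781 and 0.815 CPM in hel-1;daf-2, against 3.66 and 2.71 CPM in hel-1 and 13.6 and 7.33 CPM in wild type (log2 fold change -2.80 ± 0.38, adjusted p = 0.00471). ilys-5 and cpr-5 were lowest in daf-2 and intermediate in the double mutant; ugt-53 was equally low in both, and lower in hel-1 than in wild type. The lectin genes clec-190 (-3.55 ± 0.31), clec-47 (-2.95 ± 0.44) and clec-4 (-2.83 ± 0.37), C09B8.4 (-3.20 ± 0.16), the AMP-activated kinase gamma subunit gene aakg-4 (-2.56 ± 0.37) and nspc-13 (-2.45 ± 0.38) completed the 12 largest falls on the log2 scale.

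Other than icmt-1, which was among the 8 best expressed rises too, the best expressed genes that at least doubled changed less. lea-1 (WBGene00002263, chromosome V, 10011923 to 10028168), a late embryogenesis abundant protein that protects drying worms, had 2750 and 2050 CPM in daf-2 and 2710 and 2630 CPM in hel-1;daf-2, against 393 and 738 CPM in hel-1 and 320 and 424 CPM in wild type (log2 fold change 2.46 ± 0.23, adjusted p = 0.000836). sip-1 (WBGene00004798, chromosome III, 10506106 to 10506801), a small heat shock protein, had 2760 and 2560 CPM in daf-2 and 3190 and 3030 CPM in hel-1;daf-2, against 1330 and 1490 CPM in hel-1 and 1360 and 1570 CPM in wild type (log2 fold change 1.0 ± 0.10, adjusted p = 0.00124). The group also held the lysozyme lys-8 (1.38 ± 0.18), the cystatin cpi-1, an inhibitor of cysteine proteases (1.76 ± 0.23), the acid ceramidase asah-1 (1.47 ± 0.13), Y119D3B.21 (1.36 ± 0.14) and F48D6.4 (1.32 ± 0.17). sip-1 overlaps an antisense gene.

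On the falling side the best expressed genes were, beside fat-7, ilys-5 and cpr-5, the chitinase gene cht-3, with 136 ± 21.6 CPM in the daf-2 strains and 271 ± 9.45 CPM in the others (-1.0 ± 0.09 on the log2 scale), and dhs-25, a short-chain dehydrogenase, with 56.1 ± 7.97 CPM in the daf-2 strains and 194 ± 10.1 CPM in the others (-1.79 ± 0.09). dnbp-1 (-1.26 ± 0.10), the EndoU ribonuclease gene endu-2 (-1.0 ± 0.12) and dod-23 (-1.75 ± 0.17) followed. Levels after ± are standard deviations of the 4 libraries of a side, which hold 2 genotypes each.

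Some genes had 3 or fewer counts in all 4 other libraries together. A stretch of chromosome V held several of them. From 17339084 to 17551209 of WBcel235, 212 kb, 13 neighbouring tested genes were all called higher, the longest such run among the tested genes. They were fbxa-188, fbxa-189, fbxb-7 and fbxa-176, which encode F-box proteins, the Skp1-related gene skr-5, the zinc finger gene lsy-27, F47H4.2, Y20C6A.1, C18D4.6 and 4 pseudogenes; those outside the rule for names were chosen after their values were seen. All annotated genes of the stretch together held 1771 and 2304 counts in the daf-2 libraries and 1804 and 1725 in the double mutant, against 1 and 0 counts in hel-1 and 1 and 0 in wild type.

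lsy-27 carried both of the 2 counts outside the daf-2 strains. Its level was 23 and 21.1 CPM in daf-2 and 25.2 and 23.6 CPM in hel-1;daf-2, against 0.0265 and 0 CPM in hel-1 and 0.0291 and 0 CPM in wild type, a ratio of 1580 between the summed counts of the sides, each over its summed scaled library size, with a 95% counting interval of 436 to 13000. Y20C6A.1 was at least 64.6-fold and F47H4.2 at least 61.7-fold higher, against a floor of 3 counts in each of the other libraries. The other 12 genes of the run had no count in hel-1 or wild type, and the nearest tested gene on each side, F31E9.3 and C38D9.2, had counts in all 8 libraries. Further out, Y6G8.2 (2.67 ± 0.29), the pseudogene WBGene00050974 (5.42 ± 0.63) and F31E9.11 (1.53 ± 0.32) were called higher too. F31E9.11 kept its call in 3 of the 8 fits without 1 library. From 17000001 to 18000000, 19 of 62 tested genes were higher and none lower, 30.6% called, the highest share of any such window. Of 82 annotated genes in the stretch, 29 had any count. The stretch lies on another chromosome than daf-2, and within 1 Mb of daf-2 itself 11 genes were higher and 9 lower of 244 tested, 8.20%, against 7.14 to 10.3% on the autosomes and X. Anything besides the daf-2 allele that both daf-2 strains share there, or that hel-1 and wild type share there, cannot be told apart from it.

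**Figure D2:**
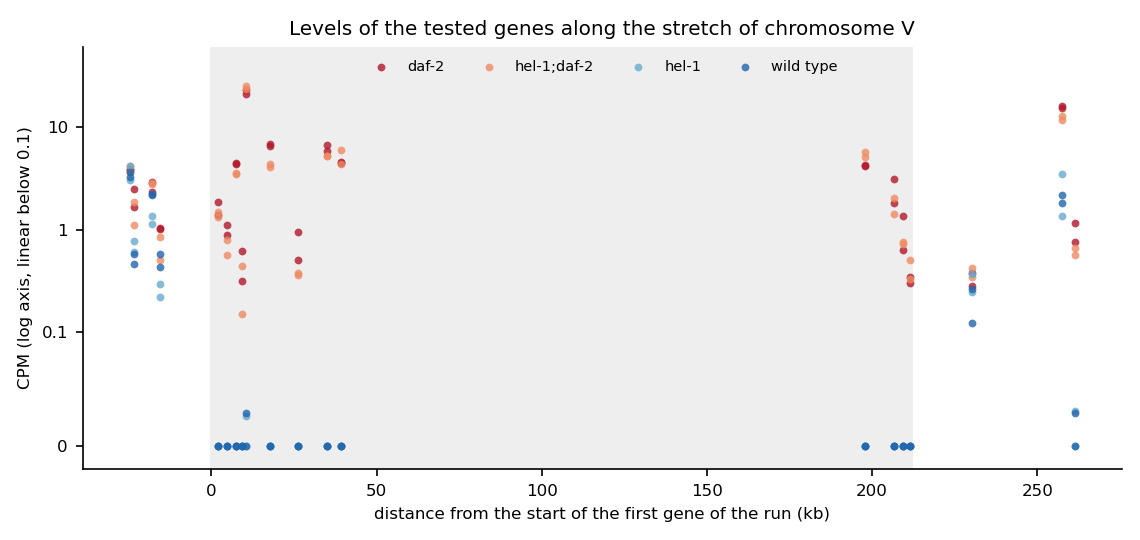
Levels of tested genes along the stretch of chromosome V against the distance in kb from the start of the run; each point is 1 library, on a log axis that is linear below 0.1 CPM, with the 13 genes of the run on grey. Inside the grey area the daf-2 and hel-1;daf-2 libraries lie between 0.15 and 25.2 CPM and the hel-1 and wild-type libraries at or next to 0.

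Outside that stretch, Y39G8B.7 on chromosome II had 12 and 51.8 CPM in daf-2 and 3.67 and 6.12 CPM in hel-1;daf-2, against 0 and 0 CPM in hel-1 and 0 and 0 CPM in wild type, at least 208-fold higher. cpr-2, a cathepsin B-like protease gene on chromosome V, had 8.26 and 45 CPM in daf-2 and 0.481 and 1.25 CPM in hel-1;daf-2, against 0 and 0.0312 CPM in hel-1 and 0 and 0 CPM in wild type, a ratio of 2120 taken in the same way, with an interval of 379 to 83600. Its rise did not pass the test within the hel-1 background (adjusted p = 0.139), and more of it lay in daf-2 replicate 2 than in the other 3 libraries together. A run of 3 neighbouring tested genes on chromosome I was called higher, unc-38, icmt-1 and F21F3.2, the last named after its values were seen, with mean levels of 1.59 CPM in the daf-2 strains and 0.268 CPM in the others. unc-38, an alpha subunit of muscle nicotinic acetylcholine receptors, lies 943 bases from icmt-1 with no tested gene between them, on the opposite strand. It had 39.9 and 50.7 CPM in daf-2 and 49.7 and 47.8 CPM in hel-1;daf-2, against 0.53 and 0.81 CPM in hel-1 and 0.523 and 0.466 CPM in wild type (log2 fold change 6.34 ± 0.16, adjusted p = 6.57e-07). unc-38 was the 1 called gene of 30 tested body wall muscle markers.

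The insulin/IGF-1 pathway was read next through gene lists. Of 20 tested pathway components, 4 were higher and none was lower, against 5.06% and 3.08% of all tested genes. They were daf-2, the insulin receptor substrate ist-1 (log2 fold change 0.83 ± 0.16), the PDK-family kinase pdk-1 (0.51 ± 0.12) and the 14-3-3 protein ftt-2 (0.26 ± 0.06). None of the 4 kept its call in all 8 fits that left out a library. The list's median of 0.06 was close to the 0.02 of all tested genes.

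Insulin-like peptide genes, which encode the receptor's agonists and antagonists, contributed 6 higher genes and none lower of 18 tested, with a median of 0.60, and of 0.26 with the same counts without daf-2 replicate 2. ins-10, ins-22 and ins-23 were called in all 8 such fits. All were expressed at low levels: ins-10 had 1.61 and 1.8 CPM in daf-2 and 1.62 and 2.01 CPM in hel-1;daf-2, against 0.053 and 0.0312 CPM in hel-1 and 0.0291 and 0 CPM in wild type (log2 fold change 5.76 ± 0.46, adjusted p = 0.000461), and ins-23 had 1.01 and 1.2 CPM in daf-2 and 1.05 and 1.25 CPM in hel-1;daf-2, against 0.106 and 0.0623 CPM in hel-1 and 0.0581 and 0.031 CPM in wild type (log2 fold change 4.05 ± 0.37, adjusted p = 0.000829). The groups did not overlap, although the lower levels rest on few counts. ins-22 (3.84 ± 0.67), ins-29 (2.32 ± 0.49), ins-33 (3.43 ± 0.74) and ins-35 (3.16 ± 0.55) were the others. These genes are outside the rule for names because they stay below 5 CPM.

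Most tested genes that earlier work placed under activation by DAF-16 were higher. The members of the list were chosen with earlier results of these data known. Of 30 tested, 20 were higher, 66.7%, against 5.06% of all tested genes. None was lower, against 3.08%, and the median log2 fold change was 1.25. Of the 20, 12 kept their call in every fit that left out a library. Beside those given above they included nnt-1, a mitochondrial transhydrogenase (3.30 ± 0.35), dod-3 (3.75 ± 0.56), the acid sphingomyelinase asm-2 (1.73 ± 0.18), the gluconeogenic enzyme pck-1 (1.91 ± 0.38), the linker histone hil-1 (1.90 ± 0.33), the lysozyme lys-7 (3.02 ± 0.67), the aquaporin aqp-1 (1.28 ± 0.26) and the trehalose synthase tps-1 (0.76 ± 0.17). The last 5 were not called in all 8 such fits. Among the 10 that were not called, fat-5 stood at 0.53, ctl-2 at 0.40, icl-1 at 1.13 and hsp-16.2 at -1.49. The median was 1.03 without daf-2 replicate 2, with 22 higher genes and 1 lower.

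The list of genes repressed by DAF-16 in earlier work, chosen with the same knowledge, had 4 lower and no higher genes of 14 tested. The 28.6% lower stood against 3.08% of all tested genes, and the median was -0.24. Without daf-2 replicate 2 the median was -0.45, with 5 lower and 1 higher. dod-22 had 0.0946 and 0.125 CPM in daf-2 and 0.0601 and 0.157 CPM in hel-1;daf-2, against 3.31 and 3.21 CPM in hel-1 and 0.988 and 0.652 CPM in wild type (log2 fold change -3.92 ± 0.49, adjusted p = 0.00315). dod-23 had 20.3 and 22.7 CPM in daf-2 and 27.1 and 30.9 CPM in hel-1;daf-2, against 62.5 and 90.9 CPM in hel-1 and 88.5 and 97.4 CPM in wild type (log2 fold change -1.75 ± 0.17, adjusted p = 0.00107). dod-24 (-2.40 ± 0.52) and the intestinal peptide transporter pept-1 (-0.55 ± 0.07) were the other 2. The yolk protein genes of this list, vit-2 at -0.14 and vit-5 at -0.22, did not pass the test.

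**Figure D3:**
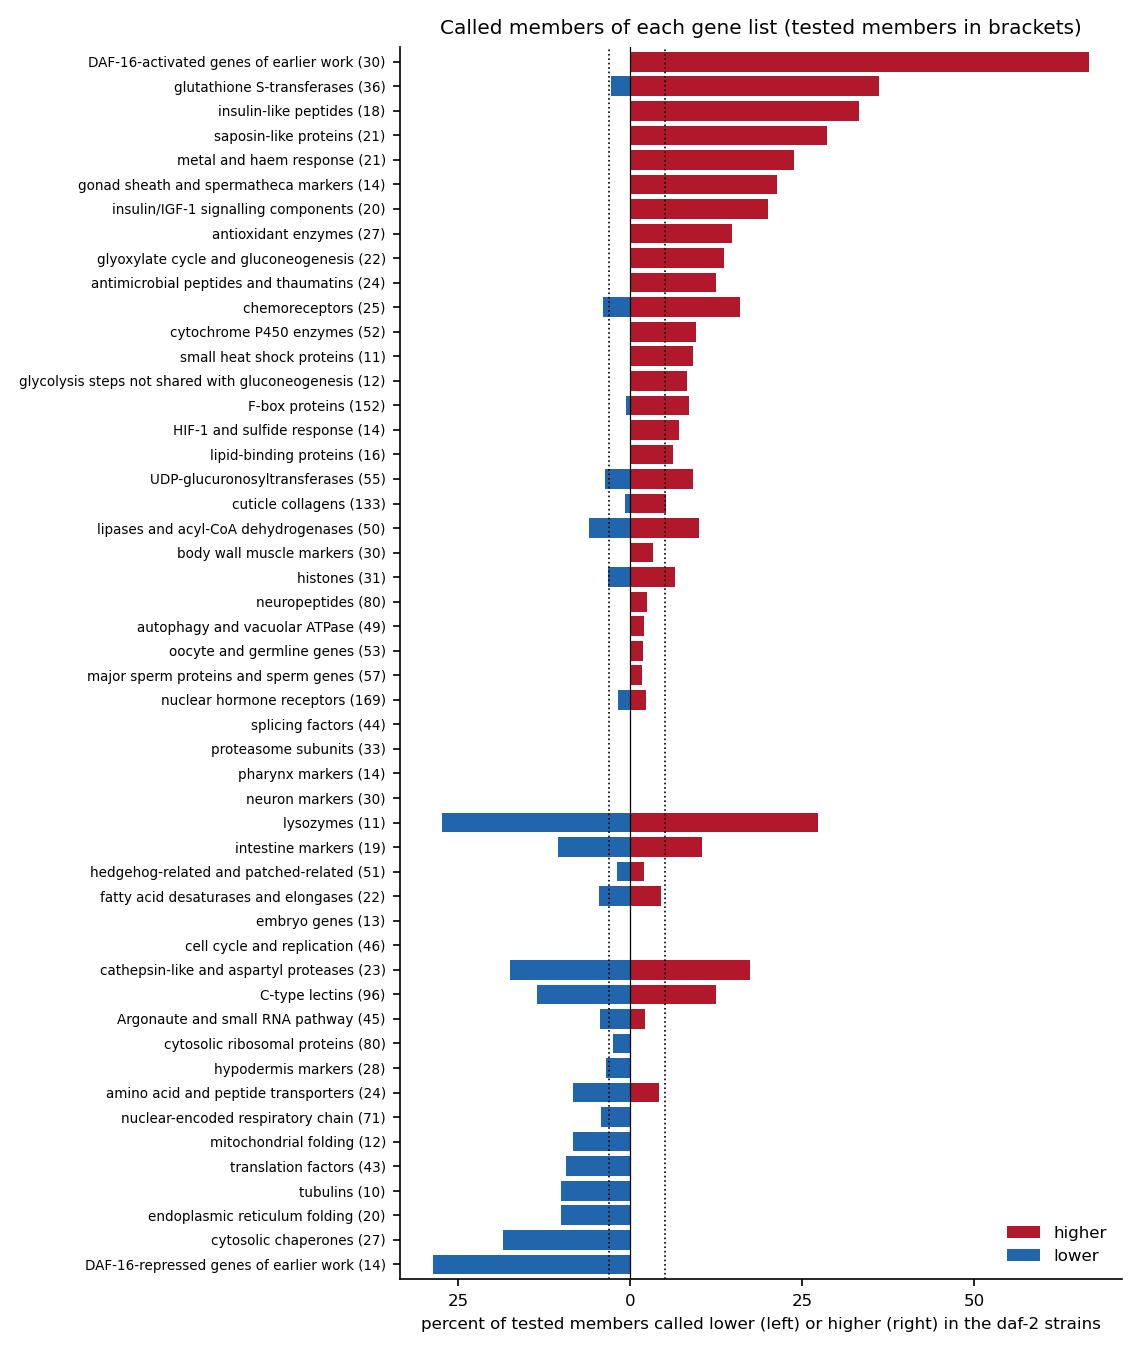
Percent of the tested members of each gene list called higher (right, red) or lower (left, blue) in the daf-2 strains, for lists with at least 10 tested members, with the number tested in brackets; dotted lines mark 5.06% higher and 3.08% lower over all tested genes. The list of DAF-16-activated genes reaches 66.7% higher, and the list of DAF-16-repressed genes 28.6% lower. The members of the lists were chosen with earlier results of these data known.

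Enzymes that handle oxidants and foreign compounds were read by family, beside 5.06% higher and 3.08% lower over all tested genes. Without daf-2 replicate 2 more genes were called over all 13722 tested, 1004 higher and 913 lower. Antioxidant enzymes had 4 higher, 14.8%, and no lower of 27 tested, with 7 higher without daf-2 replicate 2. Beside sod-3 they were the catalase gene ctl-3 (1.41 ± 0.11), the cytosolic copper and zinc superoxide dismutase sod-1 (0.43 ± 0.06) and the mitochondrial sod-2 (0.28 ± 0.06). sod-1 moved little but evenly, with 242 and 266 CPM in daf-2 and 238 and 253 CPM in hel-1;daf-2, against 182 and 191 CPM in hel-1 and 183 and 187 CPM in wild type. Of 36 tested glutathione S-transferases, which join glutathione to reactive compounds, 13 were higher, 36.1%, and gst-22 was lower (-1.29 ± 0.29). The list's median was 0.58, and 0.35 without daf-2 replicate 2, with the same 13 to 1 split in number.

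Within that family the replicates differed. gst-20 had 15.6 and 48.8 CPM in daf-2 and 17 and 30.1 CPM in hel-1;daf-2, against 5.89 and 5.17 CPM in hel-1 and 5.06 and 6.49 CPM in wild type (log2 fold change 2.29 ± 0.36, adjusted p = 0.0085). gst-10 had 49.1 and 91 CPM in daf-2 and 26.1 and 53.1 CPM in hel-1;daf-2, against 15.8 and 11.8 CPM in hel-1 and 19.9 and 14.4 CPM in wild type (log2 fold change 1.78 ± 0.29, adjusted p = 0.0096). gst-39 had 9.17 and 12.5 CPM in daf-2 and 9.38 and 11.2 CPM in hel-1;daf-2, against 3.66 and 4.02 CPM in hel-1 and 3.55 and 3.45 CPM in wild type (log2 fold change 1.53 ± 0.15, adjusted p = 0.00099). In gst-20 and gst-10 replicate 2 of each daf-2 strain was above replicate 1, and gst-39 was more even. gst-13 (1.23 ± 0.20), gst-29 (3.39 ± 0.38) and the kappa-class gstk-1 (0.94 ± 0.16) were also called in all 8 fits that left out a library. Within single backgrounds, 15 of the 36 were called higher in daf-2 over wild type, where 12.1% of all tested genes were, and 2 in hel-1;daf-2 over hel-1, where 2.96% were. Without daf-2 replicate 2 the list's medians were 0.38 in daf-2 over wild type and 0.35 in hel-1;daf-2 over hel-1.

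Metal and haem response genes had 5 higher and no lower of 21 tested, 23.8% higher against 5.06% of all tested genes. mtl-1 and ftn-1 led them, followed by hrg-7, an aspartic protease of haem signalling between tissues, with 89.6 ± 7.32 CPM in the daf-2 strains and 43.8 ± 5.02 CPM in the others (log2 fold change 1.03 ± 0.10, adjusted p = 0.000925). The cadmium-responsive gene cdr-6 (0.64 ± 0.10) and the haem transporter hrg-1 (0.59 ± 0.14) completed them. Of 52 tested cytochrome P450 genes 5 were higher, 9.62%, and none lower, with 6 and 3 without daf-2 replicate 2, led in fold by cyp-13A11 (6.69 ± 0.65) and cyp-35B1 (3.15 ± 0.59), both under 5 CPM. UDP-glucuronosyltransferases had 5 higher and 2 lower of 55, 9.09% and 3.64%, and 6 and 6 without that library. Over all 13722 tested genes, 1004 were higher and 913 lower without it. ugt-44 (1.42 ± 0.14) and ugt-5 (1.05 ± 0.17) rose and ugt-53 fell.

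Defence and digestion genes moved in both directions, beside 5.06% higher and 3.08% lower over all tested genes. Of 96 tested C-type lectin genes 12 were higher and 13 lower, 12.5% and 13.5%, and the median was 0.01. clec-85 had 40.9 and 53.5 CPM in daf-2 and 51 and 82 CPM in hel-1;daf-2, against 11.1 and 17.8 CPM in hel-1 and 16.9 and 18.3 CPM in wild type (log2 fold change 1.81 ± 0.24, adjusted p = 0.00403). clec-52 had 53.4 and 83.9 CPM in daf-2 and 25 and 29.8 CPM in hel-1;daf-2, against 4.43 and 4.8 CPM in hel-1 and 1.95 and 1.49 CPM in wild type (log2 fold change 3.85 ± 0.55, adjusted p = 0.00578). Both rose in each background, and clec-52 was higher in daf-2 than in the double mutant. clec-85 shares 397 exon bases with Y54G2A.40 on the same strand, and its counts are uncertain. clec-56 (0.89 ± 0.12) and clec-50 (1.0 ± 0.15) also rose, against falls of clec-66 (-1.67 ± 0.26), clec-204 (-1.67 ± 0.19) and clec-205 (-2.03 ± 0.26) beside those above.

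Lysozymes split too, with 3 higher and 3 lower of 11 tested, against the same 5.06% and 3.08%. lys-7, lys-8 and lys-2 (1.52 ± 0.32) rose, and ilys-5, lys-5 (-3.28 ± 0.37) and lys-6 (-1.88 ± 0.45) fell. Cathepsin-like and aspartyl proteases had 4 and 4 of 23. cpr-2, cpz-2 (0.76 ± 0.12), asp-13 (0.65 ± 0.12) and asp-18 rose, and cpr-5, asp-17 (-2.74 ± 0.55), cpr-8 (-0.98 ± 0.19) and the abundant asp-1 (-0.59 ± 0.13) fell. asp-18 had no count outside daf-2. Saposin-like proteins, some of which form pores in bacterial membranes, were one-sided: 6 were higher and none lower of 21, with a median of 0.49. spp-8 had 110 and 143 CPM in daf-2 and 103 and 121 CPM in hel-1;daf-2, against 40.7 and 62.6 CPM in hel-1 and 41 and 41.6 CPM in wild type (log2 fold change 1.37 ± 0.17, adjusted p = 0.00288).

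Fat and sugar metabolism showed calls of some genes rather than a shift of whole lists, beside 5.06% higher and 3.08% lower over all tested genes. Lipases and acyl-CoA dehydrogenases had 5 higher and 3 lower of 50, 10% and 6%, with a median of -0.02. Without daf-2 replicate 2 they had 5 and 6, where 1004 and 913 of all 13722 tested genes were called. The acyl-CoA oxidase gene acox-1.4 had 45.6 and 40.1 CPM in daf-2 and 45.5 and 46.3 CPM in hel-1;daf-2, against 18.4 and 19.7 CPM in hel-1 and 15.6 and 15.5 CPM in wild type (log2 fold change 1.37 ± 0.07, adjusted p = 6.89e-05). Its relative acox-1.2 had 10.9 and 9.13 CPM in daf-2 and 9.5 and 8.25 CPM in hel-1;daf-2, against 19.6 and 24 CPM in hel-1 and 27.7 and 17.2 CPM in wild type (log2 fold change -1.23 ± 0.16, adjusted p = 0.00407), so that these related enzymes went opposite ways. lipl-2 (3.18 ± 0.55) rose with lipl-1, and acdh-9 (-0.51 ± 0.10) fell with acdh-2. fat-7 was the only lower gene of 22 desaturases and elongases, and elo-6 (0.50 ± 0.12) the only higher one.

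Glyoxylate cycle and gluconeogenesis genes had 3 higher and no lower of 22, 13.6% higher against 5.06% of all tested genes. The 3 were pck-1, pck-2 (0.71 ± 0.16) and fbp-1, fructose-1,6-bisphosphatase. Without daf-2 replicate 2 the list had 5 higher and none lower. fbp-1 had 131 and 145 CPM in daf-2 and 137 and 133 CPM in hel-1;daf-2, against 105 and 107 CPM in hel-1 and 98.6 and 99.2 CPM in wild type (log2 fold change 0.42 ± 0.06, adjusted p = 0.00538). Of 7 vitellogenins and yolk receptors none was called, and their median was -0.21, or -0.02 without daf-2 replicate 2, the library with the lowest summed level of the list, at 77400 CPM against 98300 to 134000 CPM in the other 7. The 14 tested genes of the mitochondrial chromosome had no call either.

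Members of other lists moved singly, beside 5.06% higher and 3.08% lower over all tested genes. Nuclear hormone receptors, with 2.37% higher and 1.78% lower, were below these shares. Without daf-2 replicate 2 the calls over all 13722 tested genes were 1004 higher and 913 lower. The nuclear hormone receptor nhr-62, which is needed for longevity under dietary restriction, had 10.1 and 13.4 CPM in daf-2 and 7.96 and 6.21 CPM in hel-1;daf-2, against 2.2 and 2.68 CPM in hel-1 and 2.7 and 2.52 CPM in wild type (log2 fold change 1.86 ± 0.20, adjusted p = 0.00141), in a list with 4 higher and 3 lower of 169, and 6 and 7 without daf-2 replicate 2. The amino acid transporter aat-1 (1.79 ± 0.18) rose, the chemoreceptor sri-40 (-1.64 ± 0.21) fell, and the histone H2A gene his-35 (0.52 ± 0.06) rose. F-box genes had 13 higher and 1 lower of 152; outside the stretch of chromosome V, 9 of 148 were higher, 6.08%. fbxa-107 (0.63 ± 0.10) was even across libraries, and fbxa-78 (2.71 ± 0.39) shares 928 exon bases with a gene on the other strand. The intestinal esterase ges-1 (0.98 ± 0.14) rose in a list of intestine markers with 2 higher and 2 lower of 19, and the innexin inx-9 of the gonadal sheath (0.61 ± 0.09) in a list of sheath and spermatheca markers with 3 higher and none lower of 14.

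Genes of protein synthesis and folding stood slightly lower, and the share called lower differed by list, beside 3.08% of all tested genes. Of 80 tested cytosolic ribosomal protein genes, 65 had all 4 daf-2 libraries below all 4 others, against 9.73% of all tested genes. Only 2 of the 80 were called lower, 2.5%, with a median of -0.23. rpl-24.2 had 41.7 and 41.1 CPM in daf-2 and 43.3 and 45.1 CPM in hel-1;daf-2, against 59.7 and 53.3 CPM in hel-1 and 57.5 and 50.9 CPM in wild type (log2 fold change -0.37 ± 0.06, adjusted p = 0.0111). Translation factors had 21 of 43 in that position, with 4 called lower, 9.3%, and a median of -0.21. Cytosolic chaperones, among them the chaperonin and prefoldin subunits, had 18 of 27 so placed and 5 called lower, 18.5%, with a median of -0.30. pfd-5 (-0.36 ± 0.06) and cct-3 (-0.43 ± 0.11) were among them.

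Of the proteasome subunits 15 of 33 had all 4 daf-2 libraries below, and none was called. The nuclear-encoded respiratory chain had 27 of 71 so placed, and 3 of the 71, 4.23%, were called lower. All 5 lists were lowest in daf-2 replicate 2, the library with more muscle, pharynx and neuron RNA. Without it the medians were -0.15 for ribosomal proteins, -0.12 for translation factors, -0.20 for chaperones and -0.10 for proteasome subunits, and 26, 17, 13 and 0 of their members were called lower. The respiratory chain had medians of -0.10 with and -0.08 without it, and 10 of its genes were called lower without it. Over all 13722 tested genes, 422 were called lower with daf-2 replicate 2 and 913 without it. Members of a list are not independent measurements of it.

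The daf-2 effect was then read in each hel-1 background by itself, from a model of the 4 genotype means. The contrast of daf-2 with wild type and that of hel-1;daf-2 with hel-1 share no library. daf-2 over wild type gave 1658 higher and 990 lower genes, 12.1% and 7.21%, and hel-1;daf-2 over hel-1 gave 406 and 364, 2.96% and 2.65%. 262 genes were higher in both, 15.8% of the list in the wild-type background and 64.5% of the list in the hel-1 background. 116 genes were lower in both, 11.7% and 31.9% of the same lists. Over all tested genes the sign was the same in 48.7%. Which background gave more calls depended on how the spread was estimated and on 1 library: leaving out daf-2 replicate 2 gave 857 higher and 618 lower in the wild-type background, and 1143 and 1102 in the hel-1 background. With each pair of strains fitted by itself they were 355 and 75 in daf-2 over wild type, and 1415 and 1446 in hel-1;daf-2 over hel-1.

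Of the 695 genes called higher in the common comparison, 576 were called by themselves in the wild-type background, 318 in the hel-1 background and 261 in both. Of the 422 lower genes the counts were 338, 159 and 116. The effect was larger in the wild-type background for 485 of the higher genes, 69.8%, and for 280 of the lower genes, 66.4%. These shares were not computed without daf-2 replicate 2. The median over all tested genes in daf-2 over wild type was 0.10, and 0.01 without that library. Median log2 fold changes of the higher genes were 1.07 in daf-2 over wild type and 0.79 in hel-1;daf-2 over hel-1. Among the 12 largest rises with more than 10 counts in the other strains, icmt-1, rnh-1.3 and unc-38 differed least between the backgrounds: icmt-1 stood at 8.16 in daf-2 over wild type and 8.14 in hel-1;daf-2 over hel-1, and rnh-1.3 at 3.78 in daf-2 over wild type and 4.0 in hel-1;daf-2 over hel-1. mtl-1 stood at 8.40 in daf-2 over wild type and 5.48 in hel-1;daf-2 over hel-1, and sod-3 at 4.17 in daf-2 over wild type and 2.99 in hel-1;daf-2 over hel-1, but for neither did the difference pass its own test (adjusted p = 0.232 and 0.0888).

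**Figure D4:**
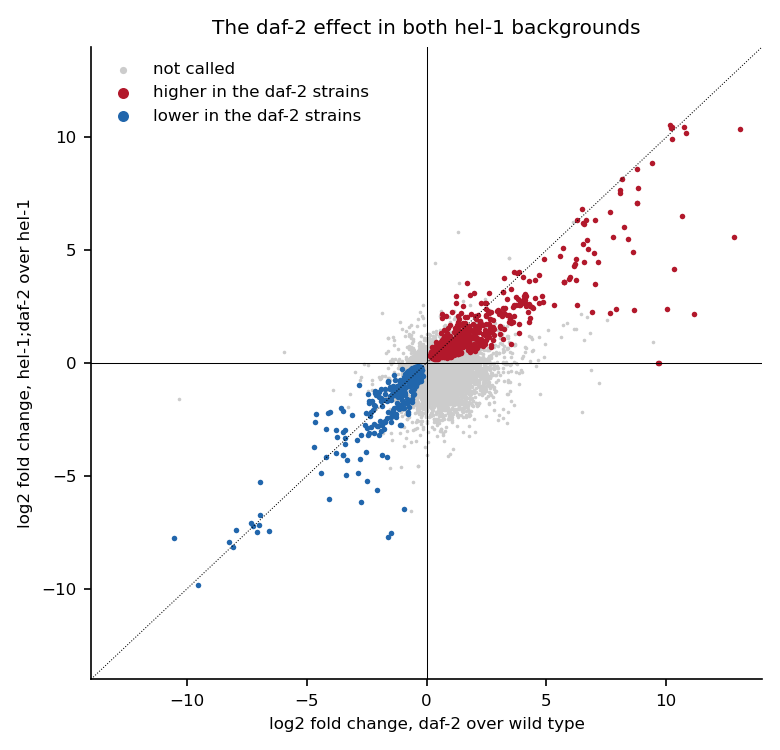
Log2 fold change of each tested gene in daf-2 over wild type (horizontal) and in hel-1;daf-2 over hel-1 (vertical), with genes called higher or lower in both daf-2 strains over both others in red and blue; the dotted line marks equal effects. The called genes were chosen by their common effect in the same 8 libraries. All but 2 of the 1117 therefore share a sign in both backgrounds, against 48.7% of all tested genes. Of the higher genes 69.8% have the larger effect in daf-2 over wild type, a share not computed without daf-2 replicate 2.

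The lists behaved in 2 ways across the backgrounds. The median of the DAF-16-activated genes was positive in both, at 1.93 in daf-2 over wild type and 0.94 in hel-1;daf-2 over hel-1. Of the 30 genes, 25 and 12 were called higher. In hel-1;daf-2 over hel-1, 1 gene was called lower, fat-5 (-0.84), which was called higher in daf-2 over wild type (1.94). The list's median in the hel-1 background was 0.73 without hel-1 replicate 1 and 1.19 without hel-1 replicate 2. Insulin-like peptides (1.31 and 0.11), glutathione S-transferases (1.05 and 0.35) and saposin-like proteins (0.73 and 0.25) had positive medians in both with all libraries. In the hel-1 background the median of the peptides was -0.03 without hel-1;daf-2 replicate 1 and 0.55 without hel-1 replicate 2. Without daf-2 replicate 2 the medians in daf-2 over wild type were 1.64 for the DAF-16-activated genes, 0.52 for the peptides, 0.38 for the transferases and 0.49 for the saposin-like proteins. The DAF-16-repressed genes were negative in both (-0.30 and -0.49).

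The medians of structural and neuronal lists stood on opposite sides, with values in the wild-type background that rested largely on daf-2 replicate 2. Cuticle collagens, the main proteins of the worm's exoskeleton, had a median of 1.40 in daf-2 over wild type, with 44 of 133 called higher and none lower. In hel-1;daf-2 over hel-1 their median was -0.53, with 1 higher and 5 lower. Neuropeptides stood at 1.28 and -0.54, with 14 of 80 higher in the wild-type background and 7 lower in the hel-1 background. Neuron markers stood at 0.99 and -0.65, and pharynx markers at 1.85 and -0.42. Antimicrobial peptides and thaumatins stood at 0.99 and -0.62. In the common comparison these lists gave medians of 0.42, 0.35, 0.18, 0.60 and 0.45 in the same order, which describe neither background.

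Without that library, with the remaining daf-2 library assumed to vary like the other genotypes, the medians in daf-2 over wild type were 0.49 for collagens, 0.29 for neuropeptides, 0.28 for neuron markers, 0.20 for pharynx markers and 0.28 for antimicrobial peptides. 25 collagens, 4 neuropeptides and none of the pharynx markers were then called higher. The summed pharynx list stood at 52.3 CPM in daf-2 replicate 1, against 51.7 and 41.5 CPM in wild type, and at 196 CPM in daf-2 replicate 2. Without daf-2 replicate 2 the common medians became -0.08 for collagens, -0.27 for neuropeptides, -0.25 for neuron markers, -0.03 for pharynx markers and -0.26 for antimicrobial peptides. Sperm genes had medians of 0.04 in daf-2 over wild type and -1.36 in hel-1;daf-2 over hel-1, and none of the 57 tested was called in either. Without daf-2 replicate 2 the median in daf-2 over wild type was -0.96. Their summed defining markers ranged from 22.9 to 77.5 CPM in the daf-2 strains and from 19.6 to 80.2 CPM in the others, with 80.2 and 19.6 CPM in the 2 wild-type libraries. Among collagens, col-76 rose in both backgrounds, with 19.4 ± 2.8 CPM in the daf-2 strains and 8.16 ± 2.04 CPM in the others (SD, n = 4 each; log2 fold change 1.24 ± 0.19, adjusted p = 0.00728).

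**Figure D5:**
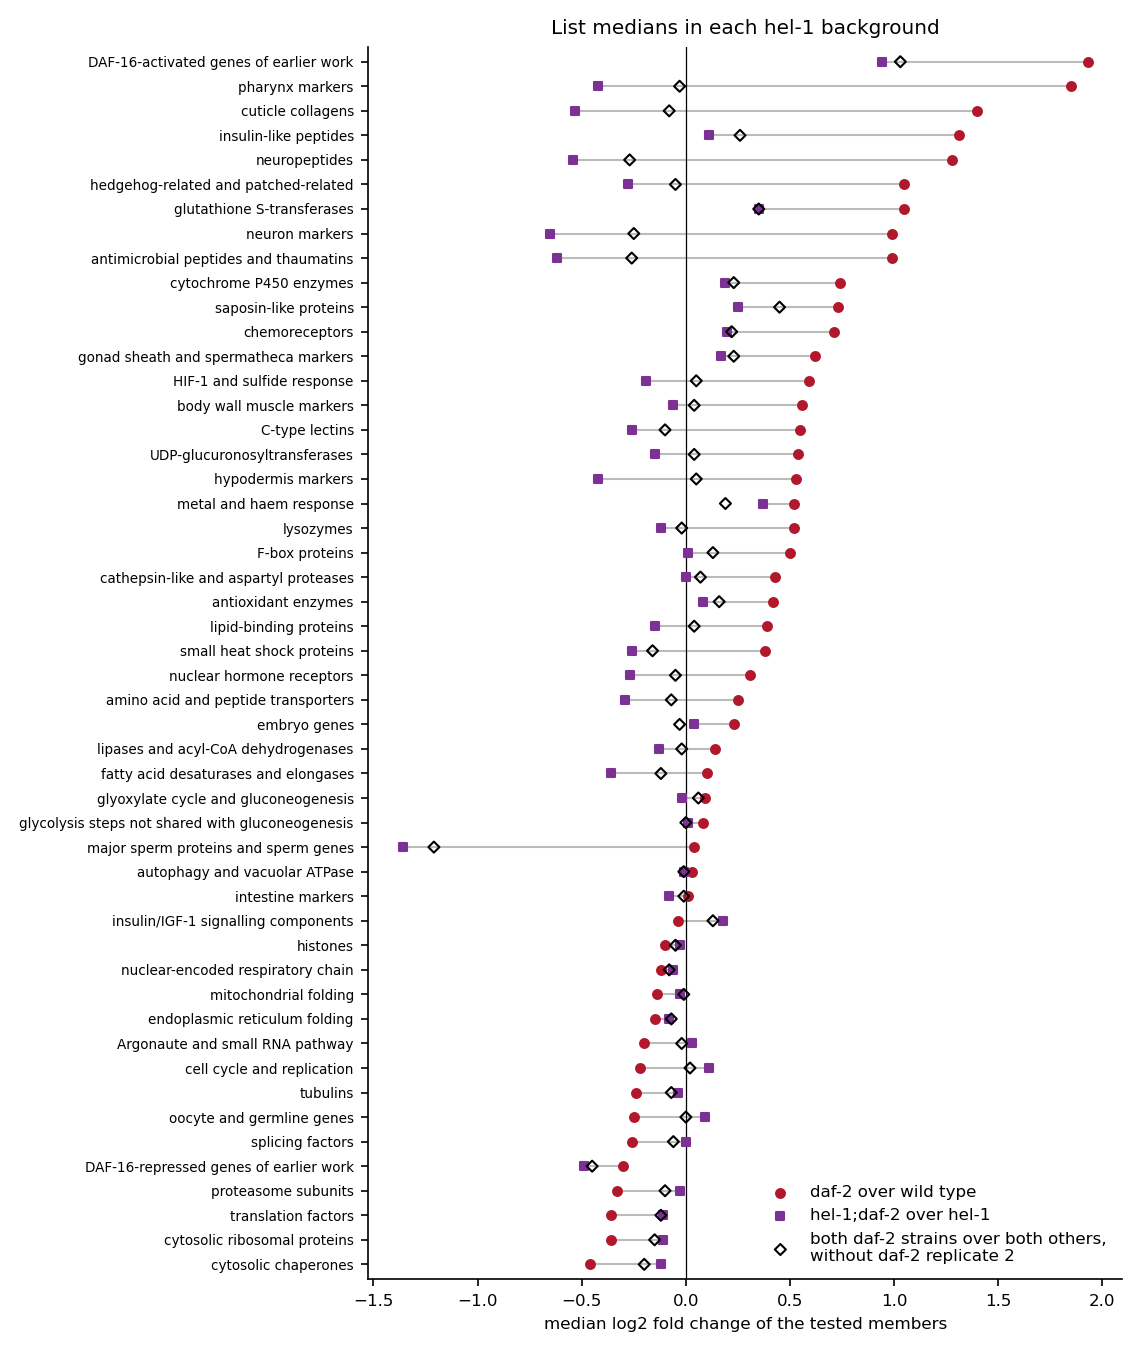
Median log2 fold change of the tested members of each list in daf-2 over wild type (red circles), in hel-1;daf-2 over hel-1 (purple squares), and in both daf-2 strains over both others without daf-2 replicate 2 (open diamonds). Pharynx markers, collagens, neuropeptides and neuron markers lie between 0.99 and 1.85 in the wild-type background, between 0.20 and 0.49 there without daf-2 replicate 2 (not drawn), and below 0 in the hel-1 background, while the DAF-16-activated genes are above 0 in both.

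For a small set of genes the daf-2 effect differed between backgrounds in a test of the difference itself. The interaction, the effect in the hel-1 background minus that in the wild-type background, was called at 113 genes, 0.823% of those tested, 103 of them with a negative and 10 with a positive difference. The count ranged from 6 to 6338 in fits that left out 1 library, the highest without daf-2 replicate 1. The 4 genes given next kept their call in all 8 such fits. Of the 113, 10 were also called in the common comparison, F21C10.11 and clec-47 among them, and these 2 kept their interaction call in 3 of the 8 fits. F02E9.10 had 62.5 and 58.5 CPM in daf-2 and 68.9 and 68.7 CPM in hel-1;daf-2, against 17 and 17.6 CPM in hel-1 and 67.8 and 68.2 CPM in wild type, so that hel-1 alone stood apart from the other 3 strains (difference of log2 fold changes 2.16, adjusted p = 0.000171). warf-1 had 0.504 and 0.474 CPM in daf-2 and 0.361 and 0.47 CPM in hel-1;daf-2, against 37.8 and 41.2 CPM in hel-1 and 0.61 and 0.931 CPM in wild type, again with hel-1 alone apart (-5.91, adjusted p = 0.00137). sqst-1, the p62 autophagy receptor gene, had 54.3 and 63.6 CPM in daf-2 and 30.2 and 30.9 CPM in hel-1;daf-2, against 52.7 and 59.3 CPM in hel-1 and 24 and 24.7 CPM in wild type (-2.15, adjusted p = 0.00137).

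nlp-20, a neuropeptide-like gene, had 7.28 and 7.4 CPM in daf-2 and 2.64 and 2.26 CPM in hel-1;daf-2, against 12.9 and 12.9 CPM in hel-1 and 4.71 and 4.47 CPM in wild type (-3.07, adjusted p = 0.00244). sqst-1 and nlp-20 were called higher in daf-2 over wild type and lower in hel-1;daf-2 over hel-1, and were 2 of 30 genes called in opposite directions. All 30 went that way and none the other. They also included the desaturase gene fat-5 (1.94 and -0.84), the Wnt gene egl-20 (0.97 and -1.83), the tubulin acetyltransferase mec-17 (1.09 and -1.86), the beta-tubulin tbb-6 (1.39 and -1.78), the cadmium-responsive cdr-4 (1.16 and -2.12) and the aspartyl protease asp-8 (1.28 and -1.80), which were chosen after their values were seen. None of the 30 was called in the common comparison. The number rested on single libraries: fits that left out 1 library found between 1 and 302 genes called higher in daf-2 over wild type and lower in hel-1;daf-2 over hel-1, the highest without daf-2 replicate 1, and 147 the other way in that same fit.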

How the data were processed

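RNA of whole day 1 adults was sequenced in 8 libraries of 4 genotypes. The deposited values are RSEM expected counts per gene, per the file headers; they are estimated counts, 1 file per library. RSEM 1.3.1 and the build WBcel235 are named in the submitters' processing notes, beside TopHat2, HTSeq and other tools. The aligner behind these counts, and any use of strand, are not given in the sources used here. Files of the daf-2 strains and of the others differ in separators and line ends, a split that coincides with the comparison: any difference in how the 2 sets of files were made cannot be told apart from the effect of daf-2. Expected counts were rounded; 2.03 to 2.79% of a library's values were fractional.

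Libraries held 31555368 to 37552513 counts. edgeR 4.0.16 in R 4.3.3 was used with TMM scaling, filterByExpr over the 4 genotypes (13722 of 46904 genes, at least 99.9% of each library's counts) and the quasi-likelihood test, with Benjamini-Hochberg adjustment over all tested genes at 0.05. The common comparison used hel-1 and daf-2 as additive terms (5 residual degrees of freedom, biological coefficient of variation 0.237). Effects within a hel-1 background and the interaction used 4 genotype means (4 degrees of freedom, coefficient 0.168), which share 1 estimate of the spread. Log2 fold changes are daf-2 strains over others and carry standard errors. CPM are counts divided by the TMM-scaled library size. The labels give no pairing of replicates, so that no block was used. The p-values from the 4 genotype means measure the spread between these repeats. In the common comparison the spread also holds any difference of the daf-2 effect between the hel-1 backgrounds.

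The text names daf-2, daf-16 and hel-1, and otherwise called genes without overlap of the 4 and 4 libraries, at least 5 CPM in the higher side and called in all 8 fits without 1 library. Of these were taken the 12 largest changes per direction with more than 10 counts in the lower side, up to 6 with 3 or fewer counts there, the 8 best expressed per direction changed at least 2-fold, up to 4 per gene list, and the 4 smallest p of the interaction. That gave 75 genes. The members, the 54 lists and the rule were chosen with earlier results of these data known. One list, of mitochondrially encoded genes, matched no symbol. Lists are described by counts and medians beside those of all tested genes, with no set test. Where the lower side has no count, a bound uses a floor of 3 counts per library, and intervals at 95% cover counting error only. Positions are those of WBcel235. Of the tested genes 6.91% overlap the exons of a same-strand neighbour. The pipeline was tested on simulated counts. Alternatives were other scalings, filters, tools (DESeq2 1.42.0 and limma 3.58.1), a replicate block, no hel-1 term, 4 genotype means, leaving out each library and, added after seeing the data, each pair of strains alone. A search of promoters for DAF-16 motifs was planned and not run, and no sequence is printed.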

Additional observations from a re-analysis of the deposited data

Results flagged for a closer look

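The 4 libraries of each side were looked at for 71 named genes, and in 7 cases, 4.93% of these sets, 1 library stood apart from the other 3 by Dixon's criterion. Chance alone meets it in about 1 of 20 sets, close to the share found. icmt-1 was at 102 CPM in daf-2 replicate 1, and inx-9 at 20.9 CPM in the same library, each below the other libraries of the daf-2 strains. acox-1.4 was at 40.1 CPM in daf-2 replicate 2, and fat-7 at 4.8 CPM in hel-1;daf-2 replicate 2, again the lowest of their 4. In hel-1 replicate 2, spp-8 was at 62.6 CPM, fbxa-78 at 1.59 CPM and cpr-2 at 0.0312 CPM, each the highest of the libraries of hel-1 and wild type.

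For 13 genes named in the text the daf-2 effect differed between the backgrounds in the interaction test. The difference of log2 fold changes, hel-1 background minus wild-type background, was -3.70 for F21C10.11, -2.21 for clec-47, 2.16 for F02E9.10, -5.91 for warf-1, -2.15 for sqst-1, -3.07 for nlp-20 and -2.74 for clec-52. For genes called in opposite directions in the backgrounds it was -2.78 for fat-5, -2.80 for egl-20, -2.95 for mec-17, -3.17 for tbb-6, -3.28 for cdr-4 and -3.09 for asp-8. F21C10.11 and clec-52 rose and clec-47 fell in both backgrounds, so that the differences called for them were of size and not of direction. For F02E9.10 and warf-1 the effect passed the test only in hel-1;daf-2 over hel-1.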

How the results depend on the processing

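Counts of called genes moved with the processing. A model of 4 genotype means, averaging both contrasts, called 1328 genes higher and 934 lower, of which 1075 and 793 did not overlap. Upper-quartile scaling gave 856 lower genes, 846 of them without overlap. Leaving out 1 library gave 281 to 1004 higher and 150 to 913 lower genes, and 279 to 984 and 150 to 865 without overlap. The daf-2 and wild type libraries alone gave 355 higher and 75 lower genes, and hel-1;daf-2 and hel-1 alone 1415 and 1446. The interaction was called at 1215 genes with no filter, 619 with DESeq2 and 31 with limma voom, and at 6 to 6338 without 1 library. The cause was not tested. The fit with a replicate block called 573 higher and 327 lower genes. Deviations of same-numbered replicates correlated at -0.479 to 0.226, which cannot show whether same-numbered libraries share a batch. Of the log2 fold changes of named genes under all alternatives, 1326 kept direction and side of the threshold, 19 lost the call and 3 changed sign. Most named genes were chosen for a call of the same sign in all 8 fits without 1 library. Their outcome in those fits was therefore fixed by the choice. Over all called genes, 264 of 695 higher and 114 of 422 lower kept their call there. The sign changes were those of daf-16, which was never called: it ranged from -0.05 to 0.02 without 1 library and was 0.03 with the daf-2 and wild type libraries alone. The call of daf-2 was lost with RLE scaling (adjusted p = 0.0605), that of cpr-2 with limma voom (0.0652). With 2 libraries per genotype and levels under 1 CPM, differences in low genes rest on few counts.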

Other observations

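Some gene families outside the lists had many calls for their size, beside 5.06% higher and 3.08% lower over all tested genes. They were chosen after their values were seen, among 178 families of at least 8 tested members. Of 44 tested transthyretin-related ttr genes, 10 were higher in the daf-2 strains and none was lower, with a median log2 fold change of 0.41, or 0.19 with 13 higher without daf-2 replicate 2. Of 19 pals genes, whose family is known for responses to intracellular pathogens, 6 were higher and none lower, with a median of 0.80, or 0.67 without daf-2 replicate 2. Short-chain dehydrogenase genes of the dhs family had 7 higher and 2 lower of 28, and aldehyde dehydrogenase genes of the alh family 4 higher and 1 lower of 13.

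The nspc genes, a nematode-specific peptide family, went the other way: 6 of 18 were lower and none was higher, with a median of -1.03, and -1.32 with 8 lower without daf-2 replicate 2. Mitochondrial ribosomal protein genes of the mrpl family had 7 lower and none higher of 41, with a median of -0.20. Of these 41, 17 had all 4 daf-2 libraries below all 4 others, against 9.73% of all tested genes. The oac acyltransferase genes had 4 lower and none higher of 17.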
